A study of Arabidopsis thaliana with 12 samples.

Results

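The genes described here are 10 Arabidopsis thaliana genes for heat stress transcription factors (HSFs), chosen by gene identifier from a table of 23893 genes: HSFA1A, HSFA1B, HSFA1D, HSFA1E, HSFA2, HSFA3, HSFA7A, HSFB1, HSFB2A and HSFB2B. Their RNA was measured by sequencing in whole 7-day-old seedlings kept at 21 °C in short days, with no heat treatment in these libraries. There were 4 genotypes with 3 libraries each. In h3.3kd seedlings the histone variant H3.3 is knocked down, and h2a.z seedlings are mutant for H2A.Z, another histone variant. Seedlings of h3.3kd;h2a.z combine both and are named the double mutant. Col is the wild type. The sources used here name neither the combined alleles nor the way H3.3 was knocked down. They also do not say whether the 3 libraries of a genotype were grown separately, and p-values then cover only the spread among these libraries, which may be technical.

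HSFs bind heat shock elements, short inverted repeats of the bases GAA in the promoters of chaperone genes. Class A factors activate transcription, and class B factors lack the activation domain of class A and mostly act as repressors. The HSFA1 factors are present before heat and start the response. They switch on HSFA2, HSFA7A and other class A genes, which prolong and amplify it, while HSFB1 and HSFB2B damp it, among others by repressing HSFA2 and HSFA7A. H2A.Z nucleosomes sit at many heat response genes and are lost from them on warming, and H3.3 is deposited outside DNA replication at transcribed genes.

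The promoters of the family were searched for heat shock elements, and the stretches that hold them are shown because these are the elements that HSFs themselves bind. The search covered 250 bases before each annotated gene start on both strands. The pair motif was GAANNTTC or TTCNNGAA, each of which is its own reverse complement, and the motif of 3 repeats was GAANNTTCNNGAA or TTCNNGAANNTTC, which are each other's reverse complement and contain both pair motifs overlapping. The sequences come from RefSeq (TAIR10.1). Of the 10 genes, HSFA1E, HSFA2 and HSFA7A had a pair and only HSFA2 and HSFA7A had 3 repeats, against 16% of 23737 promoters of the listed nuclear genes with a pair and 0.392% (93 promoters) with 3 repeats. HSFA2 and HSFA7A are shown with the pairs and triple repeats in capitals, followed by HSFA1E with its single pair and HSFA7B, the closest relative of HSFA7A and the only other HSF gene here with 3 repeats.
HSFA2: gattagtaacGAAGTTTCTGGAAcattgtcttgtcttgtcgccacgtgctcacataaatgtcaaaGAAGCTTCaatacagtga
HSFA7A: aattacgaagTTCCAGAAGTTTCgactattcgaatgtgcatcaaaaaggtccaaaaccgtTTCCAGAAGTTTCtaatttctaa
HSFA1E: ctccaccgctTTCTGGAAttaaaaaaat
HSFA7B: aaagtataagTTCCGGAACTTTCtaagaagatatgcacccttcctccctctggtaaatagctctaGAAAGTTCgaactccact
The HSFA2 stretch lies at chr2:11135526-11135608, between 98 and 16 bases before the gene start. The HSFA7A stretch lies at chr3:19264939-19265021, between 202 and 120 bases before the start. HSFA1E is shown at chr3:673374-673401 and HSFA7B at chr3:23399069-23399151. All 4 are on the plus strand. The other 7 members have neither motif in this window, which says only that these letters are not there.

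The table holds TPM, a transcript level corrected for gene length and scaled to a fixed total, so that levels of different genes can be compared. Tests were run with limma on log2(TPM + 1), log2 fold changes are on that scale, and a gene with an adjusted p below 0.05 over all genes tested is described as called. Of the 3 genes that encode H3.3, HTR4 and HTR8 were low in both genotypes with the knockdown, and HTR5 was nearer to its Col level. HTR4 and HTR8 differed from Col by log2 -3.38 and -3.77 in h3.3kd and by -3.42 and -4.10 in the double mutant, and HTR5 by -0.27 in h3.3kd libraries and by -0.43 in those of the double mutant, with 207 ± 1.998 TPM in h3.3kd, 186 ± 17.2 TPM in the double mutant and 249.9 ± 12.1 TPM in Col; with rescaled TPM the h3.3kd difference was -0.15 and was not called (adjusted p = 0.18). The H2A.Z genes HTA8, HTA9 and HTA11 differed by -3.25, -2.27 and -2.72 in h2a.z and by -3.30, -1.40 and -3.24 in the double mutant. With rescaled TPM HTA9 was higher in the double mutant than in h2a.z (1.01, adjusted p = 3.8e-06, limma) and HTA11 lower (-0.41, adjusted p = 0.0096, limma). Contrasts of the double mutant with h2a.z, and the interaction, hold this difference beside the knockdown. Its part in the values below was not tested. Whole reads recovered from the steps of the TPM values came to 5745616 in h2a.z replicate 1 and to between 21593151 and 33331150 in the other 11 libraries. Among the 10 genes a library held between 6 reads (HSFA3) and 2584 reads (HSFB1). All 4 green tissue markers, 6 root markers and 10 seed storage markers were above 0 in at least 1 library. Their summed TPM moved with genotype. Green tissue sums were 81570 to 87240 in h3.3kd, 55260 to 64670 in h2a.z, 72540 to 83690 in the double mutant and 61270 to 69080 in Col. LHCB1.3 and RBCS1A make up most of these sums, and in the double mutant against Col 2 of the 4 markers were called higher and 2 lower, LHCA1 at 0.732 and LHCB2.1 at 0.813 times Col. Root sums were 1029 to 1112 in h3.3kd, 800 to 893 in h2a.z, 827 to 858 in the double mutant and 1377 to 1473 in Col. Nearly all of the root sum is PYK10, at 974 TPM in h3.3kd, 739 in h2a.z, 717 in the double mutant and 1333 in Col, while SCR had 84.6 TPM in h3.3kd, 99.4 in h2a.z, 112 in the double mutant and 75.3 in Col. Of the 5 root markers tested against Col, 1 was called higher and 1 lower in h3.3kd, 1 and 2 in h2a.z, and 1 and 1 in the double mutant. Seed storage sums were 78.6 to 102 in h3.3kd, 17.7 to 379 in h2a.z, 130.3 to 383 in the double mutant and 22.9 to 40.6 in Col, with h2a.z replicate 3 alone at 379 and the other h2a.z libraries at 17.7 and 18.1. The part of tissue makeup in the values below was not tested, and in bulk seedlings fewer cells of a type and less RNA per cell cannot be told apart.

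HSFA2, the heat-induced activator that sustains the response and takes part in its memory, varied most among the 10 genes. HSFA2 (AT2G26150) had 2.06, 3.47 and 3.31 TPM in h3.3kd, 33.7, 33.6 and 35.0 TPM in h2a.z, 5.74, 9.16 and 7.11 TPM in double mutant libraries, and 12.9, 8.67 and 10.5 TPM in Col. Every h2a.z library stood above every other library and every h3.3kd library below, while the double mutant and Col overlapped. In h2a.z its mean TPM was 3.20 times that of Col (log2 fold change 1.60, SE 0.17, adjusted p = 2.4e-06). In h3.3kd its mean was 0.276 times that of Col, a fall by 1.57 (SE 0.17, adjusted p = 5.8e-06). HSFA2 also fell with the knockdown in the h2a.z background, where the double mutant had 0.215 times the h2a.z level (log2 -2.09, SE 0.17, adjusted p = 1.6e-07). The interaction, the log2 effect of the knockdown in the h2a.z background minus that in the Col background, was -0.52 (SE 0.24, adjusted p = 0.14) and was not called. Among the alternatives run, it was called without h3.3kd replicate 1 (-0.70, adjusted p = 0.048) and in no other. Against h3.3kd the double mutant stood at 2.49 times the level (log2 1.08, SE 0.17, adjusted p = 0.00016). Against Col it was lower by a log2 of -0.49 (SE 0.17, adjusted p = 0.024), a call lost with TPM rescaled to the median gene (adjusted p = 0.056) and without Col replicate 1 or 3 or double mutant replicate 1 or 3 (adjusted p = 0.051 to 0.12).

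HSFA7A and HSFA3, the other heat-induced class A members, did not share all of this pattern. HSFA7A (AT3G51910), a heat-induced activator gene, had 3.74, 3.44 and 2.25 TPM in h3.3kd, 7.12, 8.27 and 10.2 TPM in h2a.z, 5.90, 7.16 and 5.17 TPM in double mutant libraries, and 4.95, 3.27 and 5.09 TPM in Col. The h2a.z and the double mutant libraries were all above Col and h3.3kd, while h2a.z overlapped the double mutant and h3.3kd overlapped Col. It rose in h2a.z against Col (log2 0.82, SE 0.18, adjusted p = 0.0016) and in the double mutant against h3.3kd (0.78, SE 0.18, adjusted p = 0.0032). The other steps in its order of levels, h2a.z above the double mutant (-0.43, adjusted p = 0.058), the double mutant above Col (0.39, adjusted p = 0.081) and Col above h3.3kd (-0.39, adjusted p = 0.099), did not pass the threshold. The double mutant was called above Col with rescaled TPM (0.45, adjusted p = 0.043) and in a limma voom fit to whole reads recovered from the TPM steps (0.53, adjusted p = 0.039), and h3.3kd was called below Col without Col replicate 2 (-0.56, adjusted p = 0.033). The call of the double mutant below h2a.z appeared in the voom fit and without Col replicate 2, h2a.z replicate 1, h3.3kd replicate 3 or double mutant replicate 2 (adjusted p = 0.031 to 0.042).

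HSFA3 (AT5G03720), an activator that is switched on by the drought and heat factor DREB2A, was the scarcest member. It had 1.21, 1.24 and 1.08 TPM in h3.3kd, 0.721, 2.75 and 2.56 TPM in h2a.z, 1.996, 1.57 and 1.35 TPM in double mutant libraries, and 1.90, 1.89 and 2.09 TPM in Col. It was called in none of the 6 contrasts. Its h3.3kd libraries were all below Col and the double mutant, and the h2a.z libraries spread on both sides of all others. The low h2a.z value is that of replicate 1, the shallowest library, and rests on 6 reads (exact 95% Poisson interval 0.264 to 1.57 TPM, counting error only), against 98 and 87 reads in the other h2a.z libraries. Without that library HSFA3 was called lower in h3.3kd than in Col (-0.44, adjusted p = 0.012) and lower in the double mutant than in h2a.z (-0.48, adjusted p = 0.012). The first of these was also called in the voom fit (-0.70, adjusted p = 0.03) and in a fit of those 2 genotypes alone (adjusted p = 0.0085). It shares 486 bases with AT5G03710 on the opposite strand. The sources used here do not say whether strand was kept, so reads of the 2 genes may be mixed.

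**Figure D1:**
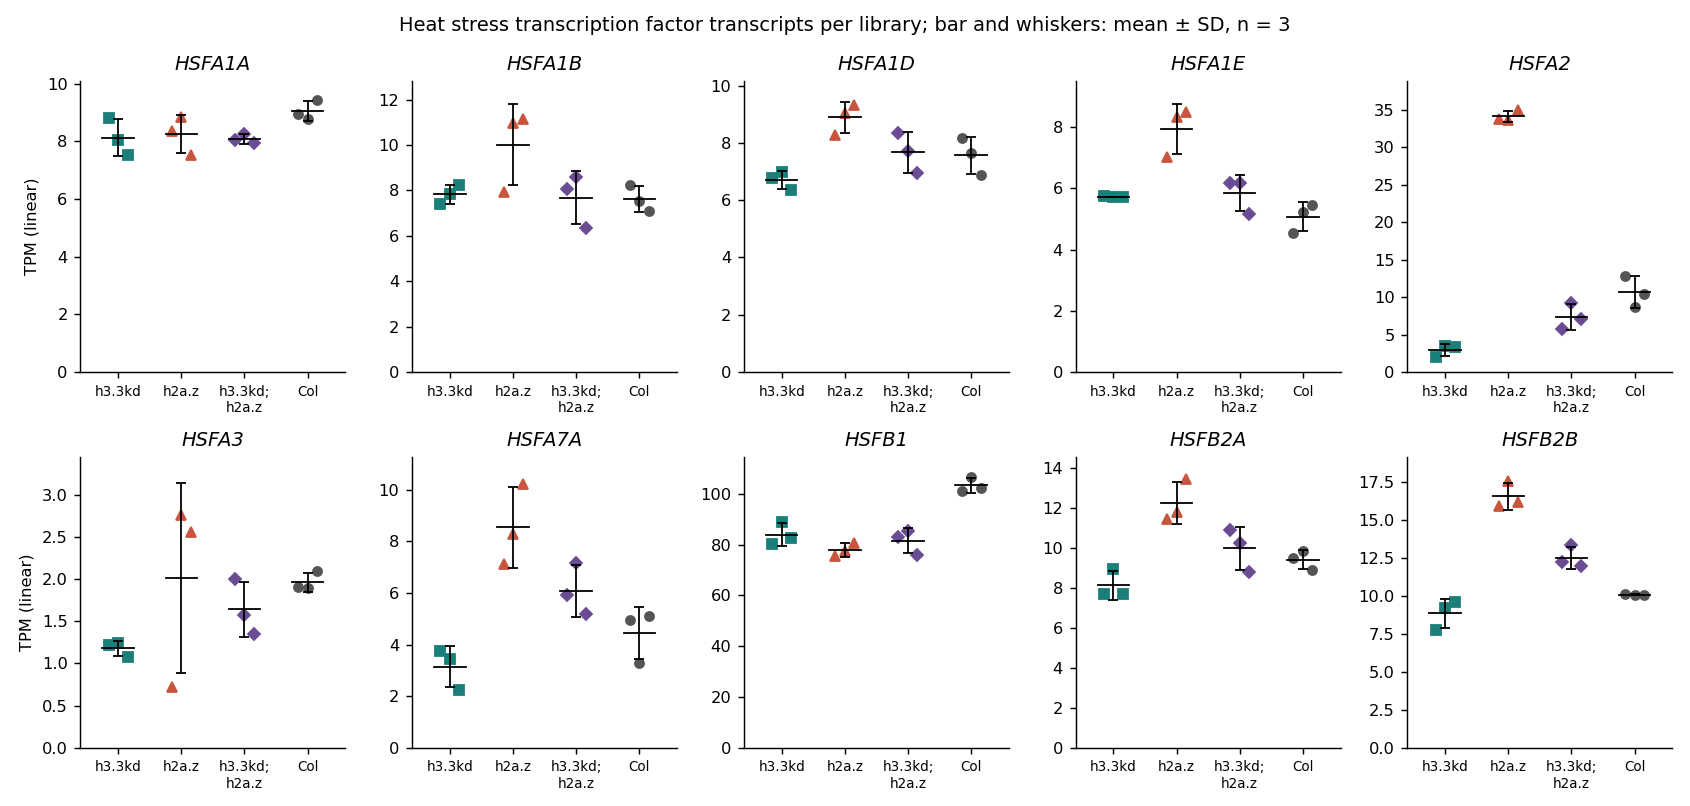
TPM (linear axes from 0, a separate scale for each gene) of the 10 HSF genes in each library of h3.3kd, h2a.z, h3.3kd;h2a.z and Col; points are libraries, bar and whiskers are mean ± SD (n = 3). HSFA2 spans from 2.06 TPM in h3.3kd to 35.0 TPM in h2a.z, HSFB1 is highest in Col, and HSFA1A hardly varies.

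The HSFA1 genes, whose proteins start the response, differed less and not as a group. HSFA1E (AT3G02990) had 5.73, 5.71 and 5.71 TPM in h3.3kd, 7.01, 8.32 and 8.50 TPM in h2a.z, 6.19, 6.18 and 5.17 TPM in double mutant libraries, and 4.53, 5.23 and 5.44 TPM in Col. Every h2a.z library was above all others. It rose in h2a.z against Col by 0.56 (SE 0.10, adjusted p = 0.00055) and fell in the double mutant against h2a.z (-0.38, SE 0.10, adjusted p = 0.0074), while the double mutant did not differ from h3.3kd beyond its error (0.02, SE 0.10, adjusted p = 0.88) and was called above Col only with rescaled TPM (0.24, adjusted p = 0.0497). The interaction was negative (-0.53, SE 0.15, adjusted p = 0.023): the log2 effect of the knockdown was -0.38 in the h2a.z background and 0.15 in the Col background. The effect in the Col background was not called (adjusted p = 0.29, limma). That interaction lost its call without Col replicate 1, h2a.z replicate 2 or 3, or h3.3kd replicate 2 or 3 (adjusted p = 0.05 to 0.057).

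HSFA1B (AT5G16820) had 7.42, 7.83 and 8.23 TPM in h3.3kd, 7.95, 10.99 and 11.1 TPM in h2a.z, 8.08, 8.58 and 6.35 TPM in double mutant libraries, and 8.22, 7.52 and 7.07 TPM in Col. The shallow h2a.z replicate 1 lay among the other genotypes on 56 reads (exact 95% Poisson interval 6.0 to 10.3 TPM), and the other h2a.z libraries lay above everything else. HSFA1B was called higher in h2a.z than in Col (0.35, SE 0.13, adjusted p = 0.037) and lower in the double mutant than in h2a.z (-0.34, SE 0.13, adjusted p = 0.038). The first call was lost with rescaled TPM, with no filter on low genes and without Col replicate 2 or 3 or h2a.z replicate 2 or 3 (adjusted p = 0.054 to 0.14), and the second with rescaled TPM (-0.21, adjusted p = 0.14), with no filter, in a fit of the 2 genotypes alone and without h2a.z replicate 2 or 3 or double mutant replicate 3 (adjusted p = 0.057 to 0.17). Without h2a.z replicate 1 the gene was also called for the interaction (-0.52, adjusted p = 0.036), as it was in the voom fit (-0.51, adjusted p = 0.037). Its annotated transcript overlaps AT5G16830 on the opposite strand by 44 bases.

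HSFA1D (AT1G32330) had 6.78, 6.98 and 6.36 TPM in h3.3kd, 8.29, 9.06 and 9.33 TPM in h2a.z, 8.36, 7.72 and 6.93 TPM in double mutant libraries, and 8.18, 7.63 and 6.89 TPM in Col. Its h2a.z libraries were all above Col, but the difference was not called (0.21, SE 0.10, adjusted p = 0.088) except in the voom fit (0.26, adjusted p = 0.04). HSFA1A (AT4G17750) had 8.82, 8.05 and 7.53 TPM in h3.3kd, 8.37, 8.86 and 7.53 TPM in h2a.z, 8.06, 8.25 and 7.94 TPM in double mutant libraries, and 8.96, 8.77 and 9.43 TPM in Col. The double mutant libraries were all below Col, while those of h3.3kd and h2a.z overlapped Col. HSFA1A was not called in any contrast, with log2 fold changes against Col of -0.14, -0.12 and -0.15 (SE 0.09 each) in h3.3kd, h2a.z and the double mutant. The summed level of the HSFA1 genes was 28.4 ± 0.497 TPM in h3.3kd, 35.1 ± 3.05 in h2a.z, 29.3 ± 2.49 in the double mutant and 29.3 ± 0.546 in Col (SD, n = 3).

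Among the class B genes, HSFB1 moved apart from HSFB2A and HSFB2B. HSFB1 (AT4G36990), the main repressor that damps the response, was the most abundant of all 21 HSF genes in every genotype. It had 80.0, 89.0 and 82.8 TPM in h3.3kd, 75.4, 77.5 and 80.6 TPM in h2a.z, 82.8, 85.5 and 75.9 TPM in double mutant libraries, and 101, 106 and 102 TPM in Col. Every Col library was above every mutant library, and the mutants overlapped one another. HSFB1 fell by 0.30 (adjusted p = 0.0013) in h3.3kd, by 0.40 (adjusted p = 6.3e-05) in h2a.z and by 0.34 (adjusted p = 0.00023) in the double mutant on the log2 scale, with an SE of 0.06 each. All 3 calls stood under every alternative that was run. The interaction was positive (0.36, SE 0.08, adjusted p = 0.0085): the double mutant differed from h2a.z by 0.06 (adjusted p = 0.39), against the fall by 0.30 in h3.3kd relative to Col. With rescaled TPM the difference between the double mutant and h2a.z was 0.21 and was called (adjusted p = 0.0045).

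HSFB2B (AT4G11660), which acts with HSFB1 as a repressor, had 7.77, 9.19 and 9.60 TPM in h3.3kd, 15.9, 17.59 and 16.2 TPM in h2a.z, 12.2, 13.3 and 11.9 TPM in double mutant libraries, and 10.12, 10.06 and 10.07 TPM in Col. The 4 genotypes did not overlap, in the order h2a.z, double mutant, Col, h3.3kd. HSFB2B rose in h2a.z against Col (0.66, SE 0.09, adjusted p = 2.3e-05) and in the double mutant against h3.3kd (0.46, SE 0.09, adjusted p = 0.0009). It was lower in the double mutant than in h2a.z (-0.38, SE 0.09, adjusted p = 0.0022) and higher there than in Col (0.28, SE 0.09, adjusted p = 0.014), the last call being lost without double mutant replicate 2 (adjusted p = 0.059). The step between h3.3kd and Col did not pass the test (-0.17, SE 0.09, adjusted p = 0.13). HSFB2B overlaps a long non-coding RNA gene (AT4G05910) by 352 bases and AT4G11670 by 308 bases, both on the opposite strand.

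HSFB2A (AT5G62020), the close relative of HSFB2B, had 7.71, 8.95 and 7.70 TPM in h3.3kd, 11.5, 11.8 and 13.4 TPM in h2a.z, 10.9, 10.2 and 8.77 TPM in double mutant libraries, and 9.46, 9.83 and 8.89 TPM in Col. All h2a.z libraries were above the rest, and the double mutant overlapped both Col and h3.3kd. It rose in h2a.z against Col (0.35, SE 0.10, adjusted p = 0.0099), a call lost without h2a.z replicate 3 (adjusted p = 0.05). It was called lower in the double mutant than in h2a.z (-0.27, SE 0.10, adjusted p = 0.033), which was lost with rescaled TPM (-0.13, adjusted p = 0.17), in a fit of the 2 genotypes alone (adjusted p = 0.085) and without h2a.z replicate 2 or 3 or double mutant replicate 2 or 3 (adjusted p = 0.052 to 0.14). The difference between the double mutant and h3.3kd (0.26, SE 0.10, adjusted p = 0.051) passed under 7 of 18 alternatives, among them rescaled TPM (adjusted p = 0.039).

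**Figure D2:**
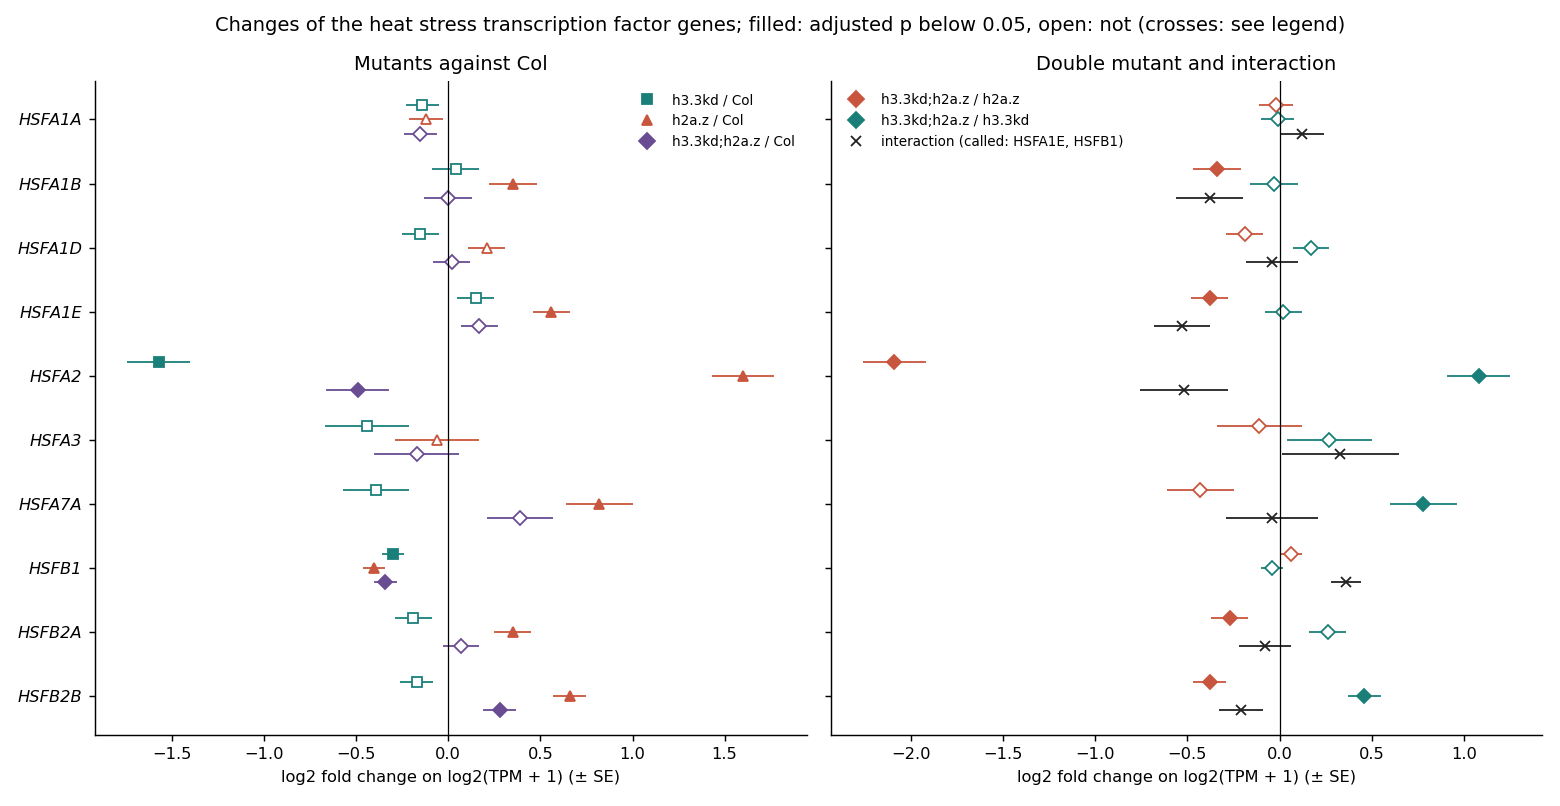
Log2 fold change on log2(TPM + 1) ± SE of the 10 HSF genes: left, each mutant against Col; right, the double mutant against h2a.z and against h3.3kd, and the interaction. Filled symbols passed the adjusted p of 0.05. The interaction is drawn as crosses, of which HSFA1E (-0.53) and HSFB1 (0.36) passed. In the left panel HSFA2 lies farthest from 0 on either side, at -1.57 in h3.3kd and 1.60 in h2a.z. In the right panel it lies at -2.09 in the double mutant against h2a.z.

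Counted over the 10 genes, all of which passed the filter of a mean TPM of 1, the comparison with the most calls was h2a.z against Col. There 6 members were called higher and 1 (HSFB1) lower, where 47.2% of all 18851 tested genes were called, 28.9% higher and 18.3% lower. The members' median log2 fold change was 0.35, beside 0.058 over all tested genes. In h3.3kd against Col none was called higher and 2 were called lower (HSFA2 and HSFB1), beside 35.9% of all tested genes called, 9.12% higher and 26.7% lower; 8 members did not pass the threshold. In that contrast the median was -0.18 for the members and -0.107 over all tested genes. In the double mutant against Col 1 member (HSFB2B) was called higher and 2 (HSFA2 and HSFB1) lower, beside 51.0% called, 20.3% higher and 30.7% lower, with medians of 0.01 for the members and -0.068 over all. The double mutant against h2a.z had 5 members called lower and none higher, beside 48.5% called, 34.3% lower and 14.2% higher, with medians of -0.31 and -0.121. Against h3.3kd the double mutant had 3 members called higher and none lower, beside 34.7% called, 20.9% higher and 13.8% lower, with medians of 0.22 and 0.034. For the interaction 1 member was positive and 1 negative, beside 17.5% called, 7.39% positive and 10.1% negative. The comparisons share libraries, so these counts are not independent of one another.

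Scaling bears on these counts, since TPM of a column sum to a fixed total. Rescaling TPM to the median gene moved the median of all genes from -0.107 to 0.002 in h3.3kd against Col and from -0.121 to 0.017 in the double mutant against h2a.z, and the share of higher calls among all called genes from 25.4% to 51.0% and from 29.3% to 52.8%. In h2a.z against Col that share moved from 61.2% to 49.0%, in the double mutant against Col from 39.8% to 50.7%, and in the double mutant against h3.3kd from 60.2% to 50.3%. With rescaled TPM 5 members were called higher and 1 lower in h2a.z, none higher and 2 lower in h3.3kd, 3 higher and 1 lower in the double mutant against Col, 1 higher and 3 lower in the double mutant against h2a.z, and 4 higher and none lower in the double mutant against h3.3kd. Without h2a.z replicate 1, the shallow library, 7 members were called lower in the double mutant than in h2a.z. Without h2a.z replicate 3, the library with the high seed storage sum, 4 members were called higher in h2a.z than in Col and 3 lower in the double mutant than in h2a.z.

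Ratios between members within a library do not depend on that scaling. They set h2a.z apart on the high side and, for HSFA2, h3.3kd on the low side. HSFA2 stood at 0.104 ± 0.028 times the summed HSFA1 level in h3.3kd, 0.976 ± 0.0825 in h2a.z, 0.252 ± 0.0576 in the double mutant and 0.364 ± 0.0666 in Col (SD, n = 3). The h2a.z ratios ran from 0.903 to 1.07 and the Col ratios from 0.297 to 0.43. Those of h3.3kd ran from 0.0717 to 0.121 and those of the double mutant from 0.187 to 0.298. Relative to the repressor HSFB1, HSFA2 was at 0.0349 ± 0.00793 in h3.3kd, 0.438 ± 0.00768 in h2a.z, 0.09 ± 0.0192 in the double mutant and 0.104 ± 0.023 in Col. The ratio of the 7 class A to the 3 class B members was 0.354 ± 0.0178 in h3.3kd, 0.747 ± 0.0307 in h2a.z, 0.426 ± 0.0172 in the double mutant and 0.378 ± 0.0358 in Col, with every h2a.z library above every other library and every double mutant library just above every Col library. Single genes weigh heavily in it. HSFA2 had 34.1 of the 79.8 TPM of class A in h2a.z and 10.7 of 46.4 in Col. HSFB1 had 77.8 of the 106.6 TPM of class B in h2a.z and 103.3 of 122.7 in Col. The summed TPM of the 10 genes was 137 ± 6.52 in h3.3kd, 186 ± 9.54 in h2a.z, 148 ± 10.7 in the double mutant and 169 ± 1.31 in Col. HSFB1 made up 41.8% of that sum in h2a.z and 61.1% in Col, and HSFA2 made up 18.3% in h2a.z and 6.31% in Col.

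**Figure D3:**
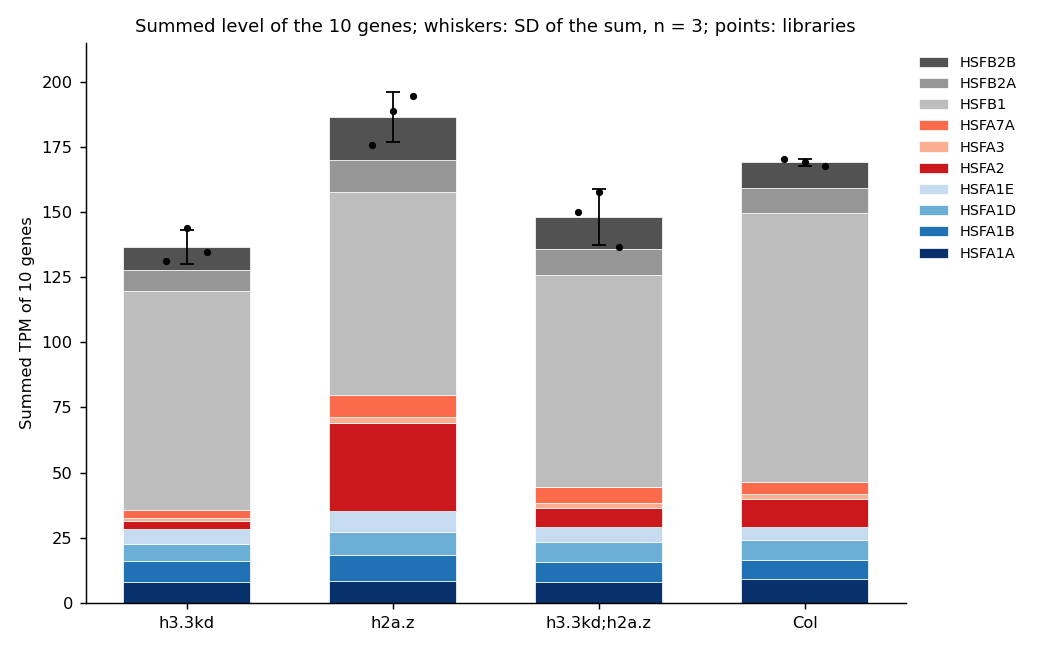
Summed TPM of the 10 HSF genes by genotype (stacked bars of genotype means from 0; blue HSFA1 genes, red other class A genes, grey class B genes); whiskers are the SD of the sum over 3 libraries and points are libraries. HSFB1 is the largest block throughout, and the HSFA2 block is widest in h2a.z at 18.3% of the sum.

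Across the 12 libraries the log2 levels of several members went together; the libraries share genotype and depth, and this is a description. Pearson's r was 0.95 between HSFA1D and HSFB2A, 0.88 between HSFA2 and HSFB2B and 0.88 between HSFB2A and HSFB2B, while HSFB1 had -0.16 with HSFA2 and -0.59 with HSFA1E. Among 2693 other genes whose genotype means spanned a log2 of at least 1, those most like HSFA2 over the 12 libraries were SNZ (r = 0.989), an AP2-type repressor of flowering, KCS6 (0.981), a fatty acid elongase of wax synthesis, and AT1G55265 (0.981). Most like HSFB2B were CWINV5 (0.981), AT3G03776 (0.976) and XDH2 (0.976), and most like HSFA1E were NAT8 (0.961), SCPL40 (0.951) and AT4G28800 (0.938). HSFA7A was closest to CNBT1 (0.953), HSFB2A to AT5G67350 (0.959), HSFB1 to AT5G54720 (0.933) and HSFA1B to PS2 (0.853), the lowest of the closest values of these 7 members, which are those called against Col.

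The remaining 11 HSF genes were set beside the 10. HSFA7B and HSFA9 were below the filter, so 9 were tested, and HSFA6A and HSFB3 passed it only through their h2a.z level. Their values are therefore given with no test. Both stay among the 9 counted below, so counts of contrasts with h2a.z were partly set by the filter and are a description only. HSFA6A, an activator of the drought and salt response, had 3.94 ± 1.08 TPM in h2a.z, 0.745 ± 0.274 in the double mutant and 0.669 ± 0.295 in Col. HSFB3, a class B gene, had 5.78 ± 1.13 TPM in h2a.z, 0.763 ± 0.131 in the double mutant and 1.39 ± 0.555 in Col. HSFA7B, whose promoter stretch is shown above, had 2, 22 and 21 reads in h2a.z and 1 read in each Col library. Of the 9, 3 were called higher and none lower in h2a.z against Col, beside 28.9% and 18.3% of all tested genes. HSFA6A and HSFB3 are 2 of these 3, 4 of the 11 were called higher with no filter, 2 were called lower with rescaled TPM and 1 without h2a.z replicate 3. In h3.3kd against Col none was higher and 3 were lower (HSFC1, HSFB3 and HSFA8), beside 9.12% and 26.7%, and 2 were lower with rescaled TPM. HSFB3 is in that test only through its h2a.z level. None was higher and 3 were lower in the double mutant against Col (HSFC1, HSFA8 and HSFA5), beside 20.3% and 30.7%. None was higher and 6 were lower in the double mutant against h2a.z, beside 14.2% and 34.3%, and 4 were lower with rescaled TPM. None of the 9 was called between the double mutant and h3.3kd, beside 20.9% higher and 13.8% lower, and 1 was called higher in the voom fit. HSFC1, the only class C gene, had 32.0 ± 2.28 TPM in h3.3kd, 59.0 ± 1.55 in h2a.z, 31.2 ± 4.46 in the double mutant and 55.6 ± 10.3 in Col, and it overlaps the long non-coding RNA gene AT3G24518 on the opposite strand over 1808 bases. In the order of mean TPM over all 21 genes HSFA2 was the 14th in h3.3kd, the 3rd in h2a.z, the 11th in the double mutant and the 4th in Col.

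Heat-inducible target genes of the HSFs, 27 chaperone and related genes of which 23 passed the filter, ranged widely. In h2a.z against Col 17 of the 23 rose and 1 fell, beside 28.9% and 18.3% of all tested genes, with a median log2 of 1.12 beside 0.058 over all tested genes. The largest rises were in HSP23.5 (2.89), a mitochondrial small heat shock protein gene, in the cytosolic small heat shock protein genes HSP17.6II (2.55), HSP17.8 (1.99) and HSP17.6C (1.73), and in the chaperone genes HSP70 (1.69) and HSP70B (1.64). HSP17.6C passed the filter only through its h2a.z level, and with no filter 19 of the 27 rose and 1 fell. The gene that fell was DREB2A (-0.46), the activator of HSFA3. In h3.3kd against Col 14 fell and none rose, beside 26.7% and 9.12%, with a median of -0.49 beside -0.107, led by HSP70 (-2.01), HSP23.5 (-1.06), the disaggregase gene HSP101 (-0.91) and the co-chaperone gene HOP3 (-0.89), and 11 fell with rescaled TPM.

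HSP70, a cytosolic chaperone gene, was called in the same direction as HSFA2 in the 5 comparisons of 2 genotypes. It had 50.5, 45.3 and 32.5 TPM in h3.3kd, 514, 587 and 588 TPM in h2a.z, 117, 168 and 116 TPM in double mutant libraries, and 190.2, 163 and 167 TPM in Col. Its TPM mean ratios were 0.247 in h3.3kd over Col, 3.25 in h2a.z over Col and 0.237 in the double mutant over h2a.z, beside 0.276, 3.20 and 0.215 for HSFA2. In the double mutant over h3.3kd the ratio was 3.12 for HSP70 and 2.49 for HSFA2, and the interaction was -0.07 (SE 0.21) for HSP70 and -0.52 (SE 0.24) for HSFA2, neither of them called. Against Col HSP70 was lower in the double mutant (log2 -0.39), which did not pass after rescaling (adjusted p = 0.099). HSP90.1, the heat-inducible cytosolic HSP90 gene, and HSP18.2, a small heat shock protein gene, had other values in the double mutant. HSP90.1 had 59.7, 64.3 and 53.7 TPM in double mutant libraries, 53.0, 53.7 and 50.3 TPM in h2a.z, and 23.2, 17.5 and 19.4 TPM in Col. HSP18.2 had 6.67, 6.02 and 7.88 TPM in double mutant libraries, 5.87, 6.96 and 5.08 TPM in h2a.z, and 1.73, 1.75 and 1.59 TPM in Col. Both rose in the double mutant against Col (HSP90.1 by 1.52, SE 0.10; HSP18.2 by 1.54, SE 0.15), and neither was called between the double mutant and h2a.z (0.17, SE 0.10, adjusted p = 0.19, and 0.18, SE 0.15, adjusted p = 0.35). With rescaled TPM HSP90.1 was called higher in the double mutant than in h2a.z (0.32, adjusted p = 0.015). Whether these genes differ from HSFA2 in this contrast was not tested.

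Over the target list, 14 of 23 fell and none rose in the double mutant against h2a.z, beside 34.3% and 14.2% of all tested genes (median -0.93, beside -0.121). HSP17.6C is among the 23 only through its h2a.z level, which favours a fall in this contrast. With no filter 17 of the 27 fell and none rose. Against h3.3kd 15 rose and none fell in the double mutant, beside 20.9% and 13.8% (median 0.57, beside 0.034). Against Col 6 rose and 5 fell in the double mutant, beside 20.3% and 30.7% (median 0.13, beside -0.068). Among those that rose were HSP23.5 (1.24), HSP17.6II (0.66) and MBF1C (0.56), a co-activator gene of the heat response. Among those that fell were DREB2A (-0.54), HSP101 (-0.42) and ROF2 (-0.42), an immunophilin gene of the heat response. With rescaled TPM 8 rose and 4 fell. The interaction was negative in 5 and positive in none, beside 10.1% and 7.39% of all tested genes. The 5 were HSP17.6II (-1.55), HSP17.6B (-1.14), HSP70B (-1.13), GOLS1 (-0.70), which encodes a galactinol synthase, and HSP17.6C (-1.79). HSP17.6C passed the filter only through its h2a.z level, which favours a negative interaction, so its value is a description only. In the 250 bases before their annotated gene starts 14 of the 27 had the pair motif, beside 16% of the promoters of listed nuclear genes. The motif of 3 repeats was in 4 (HSP17.4, HSP17.6C, GOLS1 and DREB2A), beside 0.392%. Whether each window is the promoter depends on the annotated start, which was not tested.

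**Figure D4:**
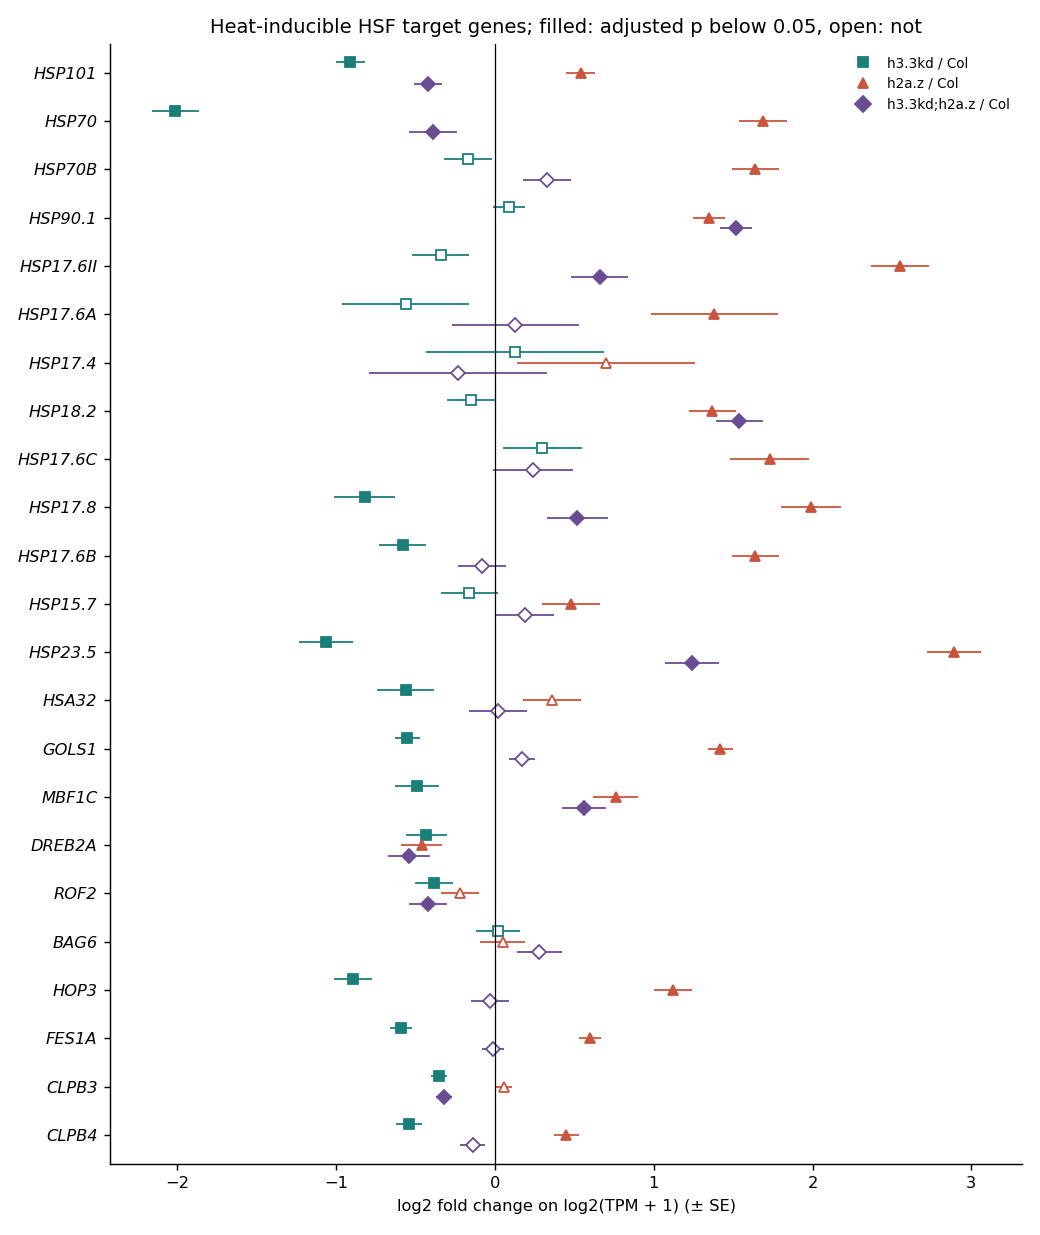
Log2 fold change on log2(TPM + 1) ± SE of the 23 tested heat-inducible target genes in h3.3kd, h2a.z and the double mutant against Col; filled symbols passed the adjusted p of 0.05. In h2a.z 17 genes rose, in h3.3kd 14 fell, and HSP90.1 and HSP18.2 rose in the double mutant by 1.52 and 1.54.

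Of 16 genes for regulators and partners of the HSFs, 15 were tested. In h2a.z against Col 4 rose and 4 fell, beside 28.9% and 18.3% of all tested genes, and with rescaled TPM 4 rose and 6 fell. Without h2a.z replicate 1 there were 2 that fell, and without h2a.z replicate 3 there was 1. In h3.3kd against Col none rose and 5 fell, beside 9.12% and 26.7%, and with rescaled TPM 1 rose and 3 fell. Against Col 3 rose and 2 fell in the double mutant, beside 20.3% and 30.7%, and with rescaled TPM 5 rose and 1 fell. Against h2a.z 1 rose and 6 fell in the double mutant, beside 14.2% and 34.3%, and with rescaled TPM 7 rose and 2 fell. Against h3.3kd 5 rose and none fell in the double mutant, beside 20.9% and 13.8%, and with rescaled TPM 5 rose and 2 fell. HSC70-1, a constitutive HSP70 that restrains HSFA1 factors, had 2973 ± 52.6 TPM in h3.3kd, 4751 ± 177 in h2a.z, 4340 ± 93.1 in the double mutant and 3100 ± 70.9 in Col, and rose in h2a.z (0.62, SE 0.05) and in the double mutant (0.49, SE 0.05) against Col. ROF1, an immunophilin that binds HSP90 and acts on HSFA2, rose in h2a.z (0.46, SE 0.06) and fell in h3.3kd (-0.53, SE 0.06) and in the double mutant (-0.17, SE 0.06; not called with rescaled TPM). HSP90.2, a cytosolic HSP90 that holds HSFs inactive, had 432, 451 and 442 TPM in h3.3kd, 213, 203 and 202 TPM in h2a.z, 665, 631 and 647 TPM in double mutant libraries, and 646, 595 and 615 TPM in Col. It fell in h2a.z against Col (-1.58, SE 0.05), and the double mutant was at 0.07 (SE 0.05, adjusted p = 0.26) from Col, called with rescaled TPM (0.14, adjusted p = 0.038), with an interaction of 2.13 (SE 0.07, adjusted p = 2.8e-11). Its near-identical neighbour HSP90.3 had 480.4 ± 10.88 TPM in h3.3kd, 834 ± 18.8 in h2a.z, 690.7 ± 14.55 in the double mutant and 664 ± 43.4 in Col. Reads can be split between the 2 genes, so their separate values are uncertain.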

How the data were processed

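RNA-seq libraries of 12 Arabidopsis seedling samples were given as 1 table in which the authors deposited TPM values for 23893 genes, per the file headers. Columns have a fixed total of 1e+06, so more TPM for 1 gene means less for the rest. Per the submitters' processing notes, which give no role or order, the build was TAIR10 and the tools included DESeq2 1.26.0, HTSeq 0.11.2, HISAT2 2.1.10 and fastp 0.20.1. How TPM were computed, and whether strand was kept, the sources used here do not say. Whole reads were recovered from the steps of the TPM values for 23793 of 23794 genes above 0 (tolerance 0.02 reads), which gave the depths.

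limma 3.58.1 in R 4.3.3 was fitted to log2(TPM + 1) of the 18851 genes whose TPM averaged 1 or more, as 1 model of the 4 genotypes over all 12 libraries with 8 residual degrees of freedom, genotype as the only term and a variance trend. Tests were two-sided with Benjamini-Hochberg adjustment over all genes tested, a threshold of 0.05 and 6 contrasts, and the script was tested on simulated data. Fold changes on log2(TPM + 1) understate changes of low genes. Where a text value is a ratio of mean TPM, no pseudocount was added.

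The 10 genes, the other lists and the tests were chosen with earlier results of these data known. Beyond the members, the genes named are up to 6 called genes of a list with the largest changes in a contrast, uncalled HSF genes, and the genes most like a member by Pearson's r. HSP70, HSP90.1, HSP18.2, HSP90.2 and HSP90.3 were set out in more detail after their values were seen. Replicate numbers did not pair the libraries: over 18 same-numbered pairs the correlation of deviations from genotype means ran from -0.17 to 0.08. Alternatives were another pseudocount, no filter, TPM rescaled by median-of-ratios size factors, a replicate block, a fit of the compared genotypes alone, each library left out, and a voom fit to the recovered reads, which was added after the data were seen. Promoters were read from the RefSeq genome TAIR10.1 by gene identifier in its own annotation; the deposited table has no coordinates.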

Additional observations from a re-analysis of the deposited data

Results flagged for a closer look

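The effect of the H3.3 knockdown differed between the h2a.z and the Col background, by a test of the difference itself, in 2 of the 10 HSF genes, where 17.5% of all 18851 tested genes were called for this interaction; the members' share is near that background. For HSFA1E the interaction was -0.53 (SE 0.15, adjusted p = 0.023, limma), from a knockdown effect of -0.38 in the h2a.z background and 0.15 in the Col background. The effect of 0.15 was not called (adjusted p = 0.29, limma). For HSFB1 it was 0.36 (SE 0.08, adjusted p = 0.0085, limma), from 0.06 in the h2a.z background and -0.30 in the Col background. The HSFA1E call was lost in 5 of the fits that left out a library (adjusted p = 0.05 to 0.057, limma), and the HSFB1 call in no alternative that was run. With 3 libraries in a genotype, single libraries were not checked for standing apart.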

How the results depend on the processing

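The log2 fold changes of the 10 genes in the 6 contrasts gave 60 values and 1070 recomputed ones, of which 984 kept their direction and side of the threshold, 30 lost a call, 25 gained one and 31 changed sign; the cause was not tested. In the double mutant against Col, members called higher were 3 with rescaled TPM and 2 with the voom fit (1 in the report; 0 to 1 with a library left out), and members called lower were 1 with rescaled TPM (2 in the report; 1 to 2). Against h2a.z, 1 was called higher with rescaled TPM (0 in the report), and 3 lower with rescaled TPM and 3 in a fit of those genotypes alone (5 in the report; 3 to 7). Negative interactions were 2 with the voom fit (1 in the report; 0 to 2).

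The sign changes were all in values that were not called in the report. HSFA1A in the double mutant against h2a.z was 0.11 with rescaled TPM and 0.01 with the voom fit (-0.08 to 0.02 with a library left out), and against h3.3kd -0.05 to 0.05. HSFA1B was -0.01 to 0.09 in h3.3kd against Col, and in the double mutant -0.07 to 0.12 against Col and -0.11 to 0.08 against h3.3kd. HSFA1D was -0.04 to 0.08 in the double mutant against Col and -0.10 to 0.02 for the interaction. HSFA1E in the double mutant against h3.3kd was -0.02 with rescaled TPM (-0.01 to 0.10). HSFA3 in h2a.z against Col was 0.19 with the voom fit (-0.26 to 0.30), in the double mutant against h2a.z -0.48 to 0.09, and for the interaction -0.03 to 0.53. The HSFA7A interaction was 0.01 with a pseudocount of 0.1 and 0.00 with rescaled TPM (-0.20 to 0.13). HSFB1 in the double mutant against h3.3kd was -0.08 to 0.01. A library left out leaves 2 in its genotype, and the spread is then pooled over all genotypes.

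With the replicate number as a block, the members called were 6 higher and 1 lower in h2a.z against Col, and the 12 counts of calls equalled those without it. Of 12 libraries 1 correlated best with its own number. Depth limits HSFA3 most, with 6 reads in h2a.z replicate 1.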
